A study of Mus musculus with 96 samples.

Results

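Nicotinic and muscarinic acetylcholine receptors were examined in single neurons of the lateral superior olive (LSO), an auditory brainstem nucleus that compares sound levels between the ears. The 9 genes were taken by name and comprised the nicotinic subunits Chrna3, Chrna4, Chrna5, Chrna7, Chrnb2 and Chrnb4 and the muscarinic receptors Chrm1, Chrm2 and Chrm3. All 9 have a row among the 38887 genes of the expression table. Patch-seq was used, in which a neuron is recorded electrically in a slice and its cytoplasm is then sucked into the pipette for RNA sequencing. The neurons came from C57BL/6J mice of both sexes, with no treatment named, in the second postnatal week, around hearing onset. The study deposited 86 neurons, grouped by firing pattern, and 10 negative controls, for which a pipette touched the slice and was withdrawn. Of these, 80 neurons and 8 controls were used: 41 pLSO_Onset and 11 pLSO_Sustained neurons, together 52 principal neurons (pLSOs), and 28 LOC_Delayed neurons, the lateral olivocochlear neurons (LOCs) that send efferents to the cochlea. The other 8 libraries were left out because their label and the study's own cluster averages, or 2 sets of values under the same name, did not match.

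Nicotinic receptors are ion channels made of 5 subunits that open when acetylcholine binds. Channels with alpha4 and beta2 subunits, or with alpha7 alone, are the common types in the brain, whereas alpha3 with beta4, often joined by alpha5, is the type of autonomic ganglia. Muscarinic receptors are G protein-coupled: M1, M3 and M5 act through Gq and phospholipase C, and M2 and M4 through Gi/o, which inhibits adenylyl cyclase and opens inwardly rectifying potassium channels. LOC neurons release acetylcholine themselves, together with peptides such as CGRP (gene Calca) and urocortin (gene Ucn). M2 is known as an autoreceptor of cholinergic neurons.

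All values are TPM, the share of a transcript in a library scaled to a fixed total, listed as whole numbers, so that values under 0.5 TPM appear as 0, and a transcript was counted as detected at 1 TPM or more. The labels name no animal, so each group was treated as 1 sample and no test between groups was made; each share has its 95% binomial interval by the exact method of Clopper and Pearson, which takes in counting error and nothing else, and for a transcript found in 0 of n libraries the limit given is 3 divided by n. The median number of detected genes was 2560.5 in pLSOs, 2394 in LOCs and 821 in controls, and the table holds no read counts from which the depth of a library could be taken. At least 1 of 5 pLSO markers was detected in 52 of 52 pLSOs, and at least 1 of 4 measured LOC markers (Calca, Ucn, Chat, Slc5a7) in 26 of 28 LOCs. Conversely, at least 1 pLSO marker was detected in 21 of 28 LOCs and 4 of 8 controls, and at least 1 LOC marker in 17 of 52 pLSOs and 5 of 8 controls. The summed levels stood further apart, the pLSO markers with a median of 513.5 TPM per pLSO and 2 TPM per LOC, and the LOC markers with a median of 0 TPM per pLSO and 1391 TPM per LOC. The LOCs without an LOC marker were cell_57 and cell_76, labelled LOC, in which all 4 LOC markers were listed at 0. Neuron markers were detected in all but 1 of the 80 neurons. Summed oligodendrocyte markers (4 genes, of which Mbp was higher in LOCs by the rule of size below) had a median of 274 TPM in pLSOs (0 to 11983), 882.5 TPM in LOCs (1 to 23234) and 2010 TPM in controls (54 to 41384). Their part in the class differences below was not tested.

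The genes for the alpha5, alpha3 and beta4 subunits lie side by side on chromosome 9 (mm10/GRCm38), Chrna5 on the plus strand at chr9:54980880-55007779, Chrna3 on the minus strand at chr9:55010111-55026562 and Chrnb4 on the minus strand at chr9:55028154-55048779. The gaps are 2331 bases between Chrna5 and Chrna3 and 1591 bases between Chrna3 and Chrnb4. Chrm2, the gene of the M2 receptor, lies on the plus strand at chr6:36388084-36528414. Promoter sequences were available from RefSeq (GRCm38.p6) for 8 of the 9 genes (9 promoters, with Chrna5 having 2), and Chrm1 had no entry. The 250 bases before the start are shown for Chrna3 and Chrm2, which were detected only or mainly in LOCs. They are also shown for Chrnb4, the cluster neighbour that was listed at 0 in all 80 neurons. These stretches lie at chr9:55026563-55026812 (minus strand), chr6:36387834-36388083 (plus strand) and chr9:55048545-55048794 (minus strand). The RefSeq start of Chrnb4 lies inside the gene bounds given above, so most of its 250 bases fall within them. Capitals mark a GC box, searched as GGGCGG or its reverse complement CCGCCC.
Chrna3: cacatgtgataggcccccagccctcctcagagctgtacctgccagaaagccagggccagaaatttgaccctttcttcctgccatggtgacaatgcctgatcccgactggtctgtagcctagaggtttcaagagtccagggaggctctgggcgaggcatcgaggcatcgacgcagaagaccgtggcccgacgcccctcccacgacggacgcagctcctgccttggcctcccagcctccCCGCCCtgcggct
Chrm2: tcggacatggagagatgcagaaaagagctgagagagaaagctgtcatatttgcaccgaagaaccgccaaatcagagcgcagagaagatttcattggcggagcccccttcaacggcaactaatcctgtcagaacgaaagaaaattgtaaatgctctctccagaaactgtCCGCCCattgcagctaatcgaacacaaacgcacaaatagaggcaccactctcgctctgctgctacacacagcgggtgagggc
Chrnb4: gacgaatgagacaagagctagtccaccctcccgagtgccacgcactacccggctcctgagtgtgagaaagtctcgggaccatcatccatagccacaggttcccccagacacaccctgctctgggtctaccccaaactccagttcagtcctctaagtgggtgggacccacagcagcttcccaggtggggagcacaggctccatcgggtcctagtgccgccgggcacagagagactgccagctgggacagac
The Chrna3 promoter holds 1 GC box, whose first base is 13 bases before the start, the Chrm2 promoter 1 at 82 bases, and the Chrnb4 promoter none. Among the promoters not shown, Chrna4 holds 3, Chrna7 1 and the second of Chrna5 4. Those of Chrnb2 and Chrm3 and the first of Chrna5 hold none. A link between GC boxes and detection was not tested. A GC box occurs in 32.9% of 27025 such promoters, 1 per gene. A TATA box, searched as TATAAA or TTTATA, occurs in 12.97% of them and in none of the 9 promoters of these genes. A match is a run of letters and not a shown binding site.

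Chrna3, which encodes the ligand-binding alpha3 subunit, was detected in LOCs and in no pLSO. It was present in 7 of 28 LOCs (25%, 95% interval 10.7 to 44.9), with 6 TPM in cell_71, 22 in cell_67, 36 in cell_69, 38 in cell_79, 50 in cell_74, 55 in cell_73 and 95 in cell_59. Each of the other 21 LOCs was listed at 0. All 41 Onset and all 11 Sustained neurons were listed at 0, and 0 of 52 pLSOs allows a share of up to 5.77%. The mean over LOCs was 10.8 TPM, or 7.67 TPM without cell_59. None of the 8 controls held the transcript, which allows a share of up to 37.5% among controls. Thus the controls set only a loose limit, and a part of slice material in the LOC values was not tested.

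Chrm2|M2, the Gi/o-coupled receptor, showed the same direction. It was detected in 10 of 28 LOCs (35.7%, 18.6 to 55.9) and in 1 of 52 pLSOs (1.92%, 0.0487 to 10.3). The LOC values were 1, 1, 2, 3, 8, 11, 11, 11, 28 and 76 TPM, with 28 in cell_71 and 76 in cell_72, and the only pLSO was the Onset neuron cell_23 with 2 TPM. LOC values thus ranged from just at the detection limit to well above it, and the mean of 5.43 TPM fell to 2.81 TPM without cell_72. At a limit of 10 TPM, 5 of 28 LOCs (17.9%) and no pLSO held Chrm2. All 8 controls were listed at 0. Over 2108 bases Chrm2 overlaps 9330158H04Rik, a gene on the other strand that was detected in 2 LOCs; both of these also held Chrm2, and without strand information reads from the shared stretch cannot be told apart.

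**Figure D1:**
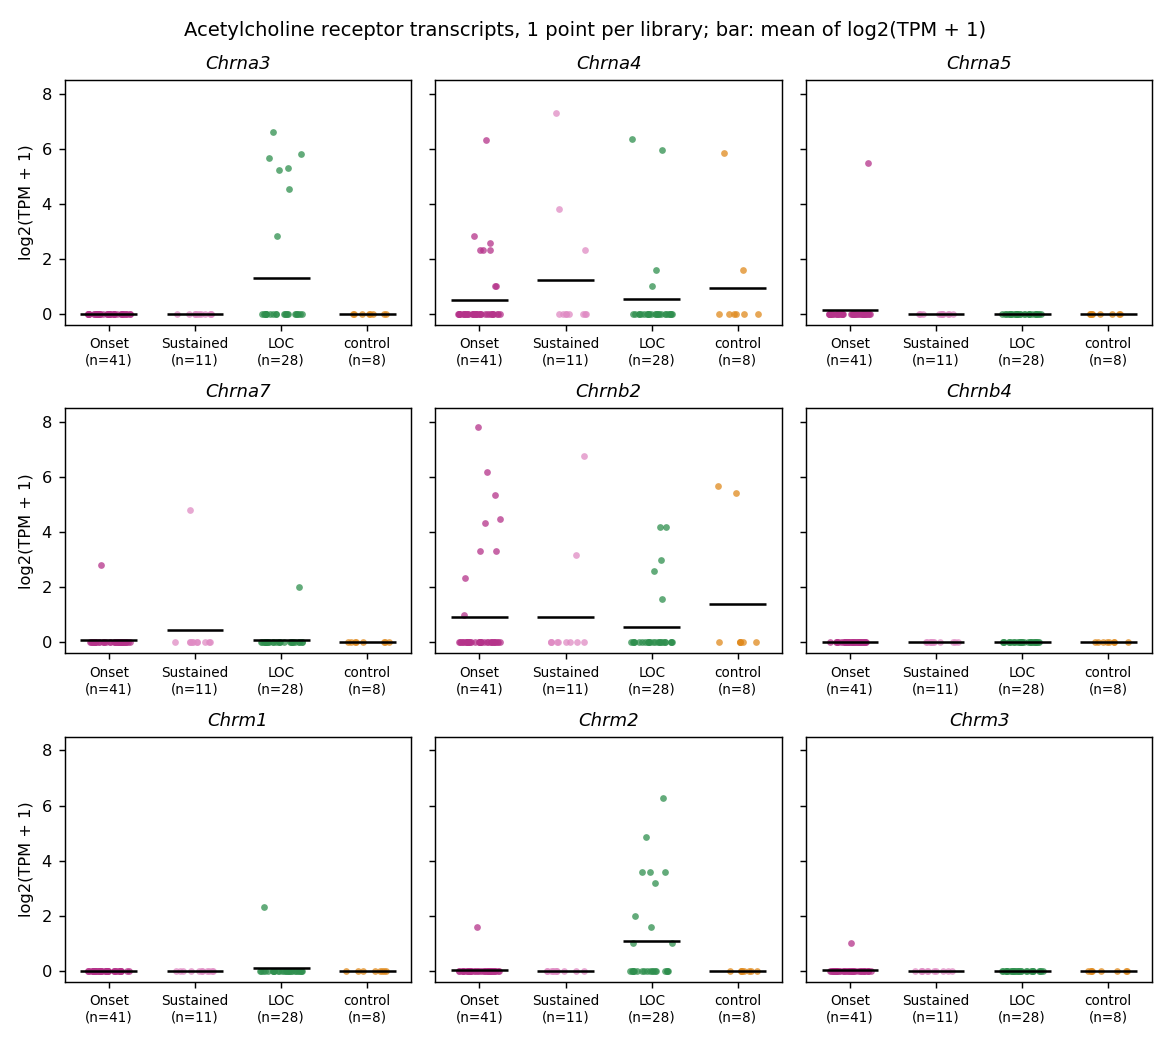
Level of each of the 9 receptor transcripts as log2(TPM + 1), 1 point per library, in Onset, Sustained, LOC and negative control libraries; the black bar is the group mean. Chrna3 points above 0 are all LOC neurons, Chrm2 points above 0 are 10 LOC neurons and 1 Onset neuron at 2 TPM, and Chrna4 and Chrnb2 are spread over every group including the controls.

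Chrna4 and Chrnb2, the subunits of the common brain receptor, were detected in every group, controls included. Chrna4 was found in 8 of 41 Onset neurons (19.5%), 3 of 11 Sustained neurons (27.3%), 4 of 28 LOCs (14.3%, 4.03 to 32.7) and 2 of 8 controls (25%, 3.19 to 65.1). The Onset values were 1, 1, 4, 4, 4, 5, 6 and 79 TPM, the Sustained values 4, 13 and 156 TPM, the LOC values 1, 2, 60 and 80 TPM and the control values 2 and 56 TPM. Only 4 of 80 neurons, 2 pLSOs and 2 LOCs, exceeded the highest control. TPM is a share of a library, and controls had a median of 821 detected genes against 2495.5 in neurons. The same TPM in a control and a neuron therefore need not be the same amount of RNA, here and for Chrnb2 below. Those 2 LOCs were cell_57 and cell_76, the neurons without LOC markers. Among the other 26 LOCs, Chrna4 was detected in 2 (7.69%), at 2 TPM or less, and the LOC mean of 5.11 TPM became 0.115 TPM.

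Chrnb2 was found in 9 of 41 Onset neurons (21.95%), 2 of 11 Sustained neurons (18.2%), 5 of 28 LOCs (17.9%, 6.06 to 36.9) and 2 of 8 controls (25%). Its values were 1, 4, 9, 9, 19, 21, 40, 72 and 225 TPM in Onset neurons, 8 and 107 TPM in Sustained neurons, 2, 5, 7, 17 and 17 TPM in LOCs and 42 and 50 TPM in controls. Of the 80 neurons, 3 were above the highest control, all of them pLSOs. The 3' end of Chrnb2 overlaps Adar on the other strand over 7252 bases. Adar was held by 7 of the 16 Chrnb2-positive neurons and by 27 of all 80 neurons. Chrna4 and Chrnb2 were detected together in 4 of 52 pLSOs, 1 of 28 LOCs and 1 of 8 controls. For both genes the share of all 80 neurons (18.75% for Chrna4, 20% for Chrnb2) was below that of the controls, whose interval is wide, so that no expression in either class was read from the shares.

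The remaining receptors were rare. Chrna5, the accessory subunit, was detected in 1 Onset neuron (cell_5, 43 TPM), which also held 6 TPM of Chrna7, the subunit of homomeric channels. Chrna7 was otherwise found in 1 Sustained neuron (cell_51, 27 TPM) and 1 LOC (cell_57, 3 TPM). Chrnb4, the usual partner of alpha3, was listed at 0 in all 80 neurons and all 8 controls, so that none of the 7 LOCs with Chrna3 held it; 0 of 28 allows a share of up to 10.7% of LOCs. Chrm1 was found in 1 LOC (cell_59, 4 TPM) and Chrm3 in 1 Onset neuron (1 TPM), both Gq-coupled receptors.

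**Figure D2:**
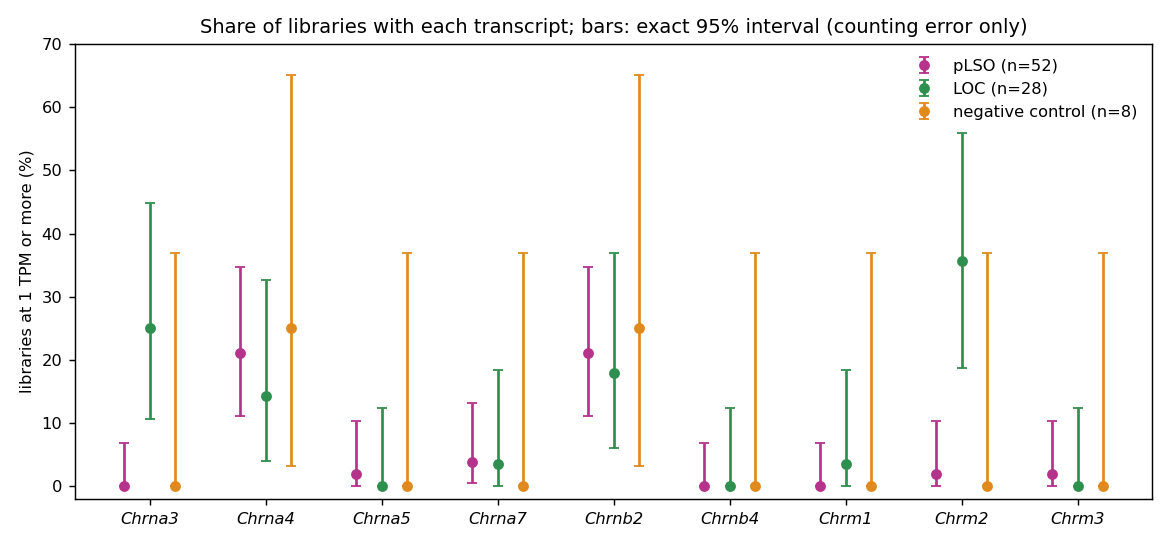
Percentage of libraries at 1 TPM or more for each receptor gene in pLSOs (magenta), LOCs (green) and negative controls (orange); bars are exact 95% intervals for counting error only. Chrna3 was detected in 25% of LOCs and in 0% of pLSOs and controls, and Chrm2 in 35.7%, 1.92% and 0%. Chrna4 and Chrnb2 were detected in all groups. No test between groups was made.

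The classes were then compared by a rule of size over all genes detected in at least 5% of neurons. A gene was called where the mean log2(TPM + 1) differed by 1 or more, or the share by 20 percentage points or more. Of the 9 receptors, 4 passed the filter on low values (Chrna3, Chrna4, Chrnb2 and Chrm2). Of these 4, 2 were called higher in LOCs, against a background of 5.65% of 10319 genes, and 0 higher in pLSOs, against 9.04% (14.7% in either direction). On the log2 scale the means of pLSOs minus LOCs were -1.28 for Chrna3 and -1.06 for Chrm2, but 0.13 for Chrna4 and 0.37 for Chrnb2. The median over the 4 receptors was -0.47, and that over all tested genes 0.07. Chrna3 was detected in 7 LOCs and 0 pLSOs, and Chrm2 in 10 LOCs and 1 pLSO. For both genes the LOCs alone were enough to pass the filter. The count called beside the background is therefore no independent support for a class difference.

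**Figure D3:**
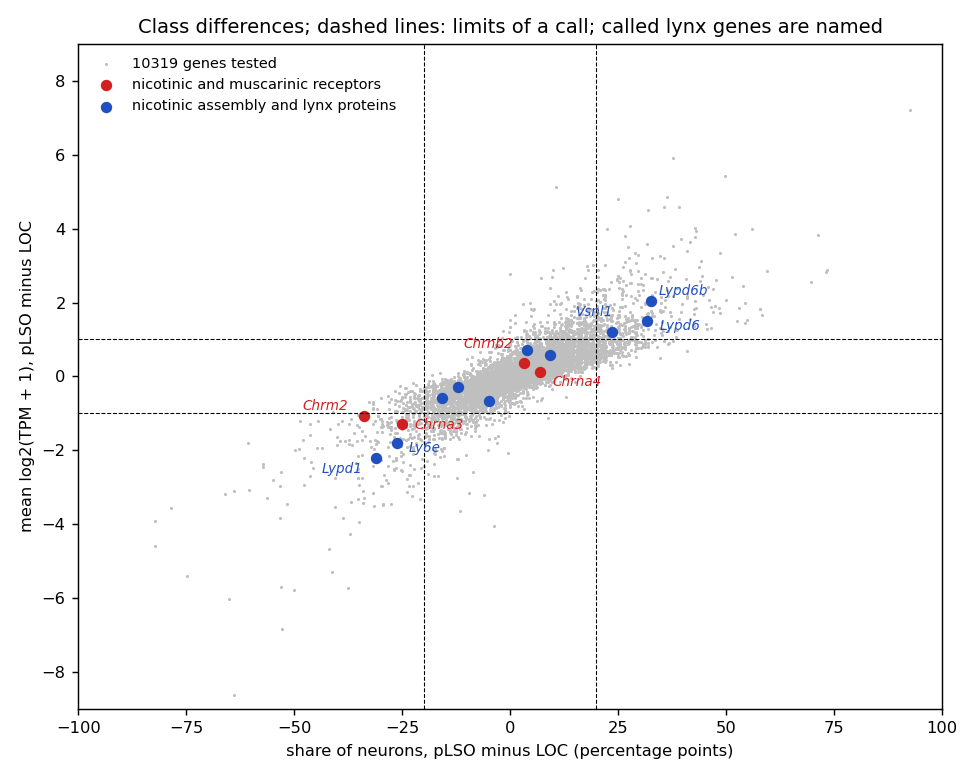
Difference between pLSOs and LOCs in the share of neurons (x axis, percentage points) and in mean log2(TPM + 1) (y axis) for 10319 genes (grey), with the tested receptors (red) and the proteins of nicotinic assembly and the lynx family (blue). Chrm2 and Chrna3 lie beyond both limits on the LOC side, Chrna4 and Chrnb2 near the origin.

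Within pLSOs, Onset and Sustained neurons were set side by side with the same rule. None of the 4 tested receptors was called, against a background of 6.07% of genes higher in Onset and 15.1% higher in Sustained neurons, 21.2% in all. Mean log2(TPM + 1) of Chrna4 was 0.50 in Onset and 1.22 in Sustained neurons, a difference set by cell_49 with 156 TPM: the Sustained mean of 15.7 TPM fell to 1.70 TPM without it. For Chrnb2 the means were 0.93 and 0.90.

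Levels can be compared between genes only after a correction, because the deposited values follow the length of another gene in the table. On values rescaled to the gene's own length, which are approximate, mean levels in LOCs were 56.5 for Chrm2 and 52.3 for Chrna3, ahead of 14.2 for Chrna4 and 2.65 for Chrnb2. Without the highest neuron the first pair stood at 28.2 and 41.4, so that their order was set by 1 neuron. In pLSOs the rescaled mean was 15.9 for Chrnb2, 12.6 for Chrna4, 7.80 for Chrna5 (1 neuron), 3.55 for Chrna7, 0.222 for Chrm2 and 0.187 for Chrm3.

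Receptor transcripts were next followed through single LOC neurons. Chrna3 or Chrm2 was present in 14 of 28 LOCs, and 3 of them held both (cell_71, cell_73 and cell_79). All 7 Chrna3-positive LOCs also held Calca and Ucn, 6 held the choline transporter Slc5a7, 5 held Lypd1 and 2 held Chat, the enzyme of acetylcholine synthesis. Chrnb2 was present in 2 of the 7 and Chrna4 in none. Of the 10 Chrm2-positive LOCs, 9 held Calca, Ucn and Slc5a7, against 26, 23 and 15 of all 28 LOCs, and the exception was cell_57, the neuron without LOC markers. Among those 10, 5 held Kcnj3, a subunit of the potassium channels opened by Gi/o-coupled receptors (9 of all 28 LOCs), and 5 held Gnao1, the alpha subunit of Go (13 of 28). Ddc was present in 5 (9 of 28) and Th in 4 (7 of 28) of the Chrm2-positive LOCs, both enzymes of dopamine synthesis. Without cell_57 and cell_76, Chrna3 was detected in 26.9% and Chrm2 in 34.6% of LOCs.

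**Figure D4:**
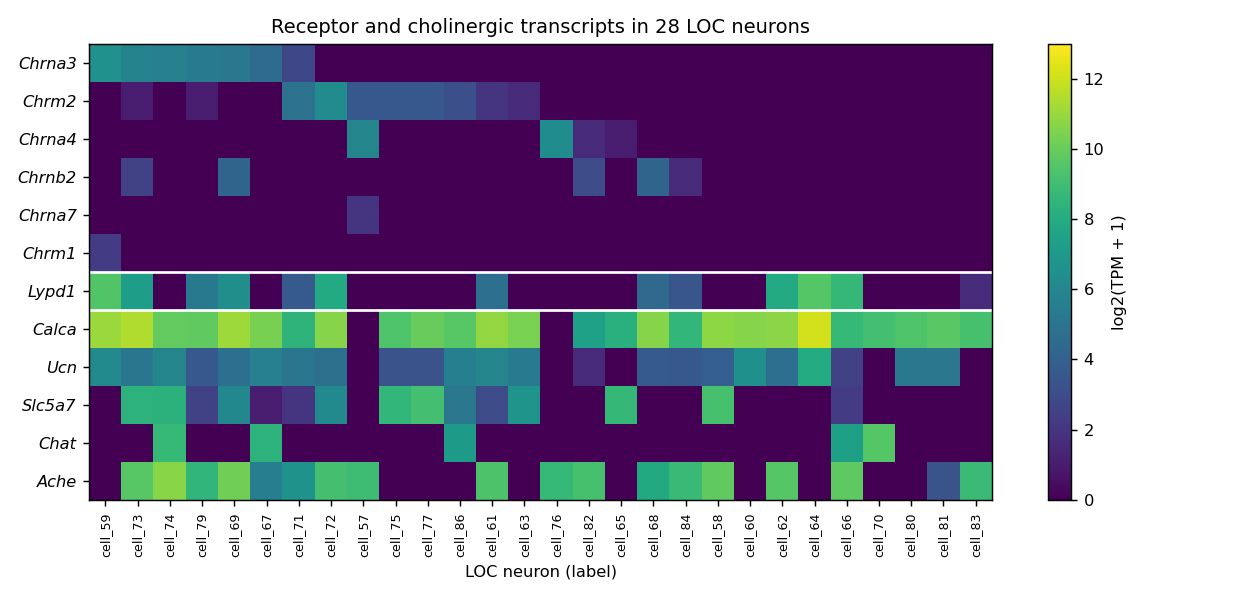
Colour map of log2(TPM + 1) for 6 receptor genes (top), Lypd1 and 5 peptide or cholinergic genes (bottom) in the 28 LOC neurons, ordered by Chrna3 and then Chrm2. The 7 Chrna3-positive neurons stand at the left, only 3 of them with Chrm2, and cell_57 and cell_76 carry Chrna4 but no Calca.

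LOCs with Chrna3 or Chrm2 spanned much of the range of library complexity. The Chrna3-positive LOCs had a median of 2792 detected genes (1532 to 3624) and the Chrm2-positive LOCs 2743 (1532 to 3624), beside 2394 in all LOCs. Medians were higher in the 4 LOCs with Chrna4 (3187.5, 2193 to 4408) and the 5 with Chrnb2 (3624, 2456 to 4408). Among neurons with 2000 to 4000 detected genes, the shares in LOCs were 23.8% for Chrna3 and 42.9% for Chrm2. By the recording labels, Chrna3 was present in 6 of 18 LOCs with a listed rheobase of 0 pA and in 1 of 10 with a higher one, with intervals of 13.3 to 59.0% and 0.253 to 44.5%. For Chrm2 the counts were 7 of 18 and 3 of 10, with intervals of 17.3 to 64.3% and 6.67 to 65.2%, so that the intervals overlap for both genes. Split at the median spike latency of LOCs (19.9 ms), Chrna3 was present in 5 of 14 with a shorter and 2 of 14 with a longer latency, and Chrm2 in 5 of 14 of each. The Chrna3 intervals, 12.8 to 64.9% and 1.78 to 42.8%, overlap. The LOCs of shorter latency had a median of 3021.5 detected genes, and those of longer latency 2106. Split at the median input resistance, Chrna3 was present in 5 of 14 LOCs with a lower and 2 of 13 with a higher one, and Chrm2 in 4 of 14 and 6 of 13. Per neuron, a mean of 0.519 of the 9 receptors was detected in pLSOs, 1.00 in LOCs and 0.5 in controls, and 39 of 80 neurons held none.

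Genes with a pattern across neurons like that of the detected receptors were listed by Pearson's r of log2(TPM + 1) over 80 neurons, as a description. For Chrm2 these were Nckap5 (r = 0.57; detected in 13 LOCs and 0 pLSOs), AI597479 (0.57) and Il1rap (0.57), an accessory protein of interleukin receptors. For Chrna4 they were Shank3 (0.58), a postsynaptic scaffold, Daglb (0.47) and Zkscan6 (0.46), and for Chrnb2 Fam234b (0.55), Ufm1 (0.53) and Chmp1a (0.49). Chrna3 fell short of the 10% of neurons set for this list and was added after its values were seen. Its closest genes were Ptpro (r = 0.75; 7 LOCs and 2 pLSOs), a receptor tyrosine phosphatase, Irak1 (0.62) and Ecel1 (0.58; 9 LOCs and 0 pLSOs). The neurons share their class and sparse values, so r is carried by few positive neurons.

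Of the other 12 subunit and receptor genes, 8 were listed at 0 in all 80 neurons, and none was detected in a control. Chrna1, the alpha subunit of the muscle receptor, was detected in 6 of 52 pLSOs (11.5%, 4.35 to 23.4; up to 115 TPM) and 5 of 28 LOCs (17.9%, 6.06 to 36.9; up to 5 TPM). Chrnb1, the muscle beta subunit, was detected in 2 LOCs and 1 pLSO. Below the 5% set for naming, and named after their values were seen, were the Gi/o-coupled Chrm4, in 3 neurons at 2 TPM or less, and Chrne, the muscle epsilon subunit, in 1 LOC at 279 TPM.

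Genes of proteins that assemble or modulate nicotinic receptors were called in both directions. Of 10 tested genes, 3 were called higher in pLSOs and 2 higher in LOCs, beside 9.04% and 5.65% of all genes tested, and 5 were not called. Lypd6b, a member of the lynx family of GPI-anchored modulators, was detected in 17 of 52 pLSOs (32.7%) and 0 of 28 LOCs, where 0 allows a share of up to 10.7%. Its pLSOs alone were enough to pass the filter on low values, so the counts called are no independent support for a class difference. Lypd6 was detected in 42.3% of pLSOs and 10.7% of LOCs, while the related Lypd1 (Lynx2) was detected in 15.4% of pLSOs and 46.4% of LOCs. Among pLSOs, Lypd1 was detected in 9.76% of Onset and 36.4% of Sustained neurons. Controls held Lypd6b and Lypd6 in 1 of 8 each, at 29 and 2 TPM, and no Lypd1. Mean levels were 59.8 TPM of Lypd6b in pLSOs, and 97.2 TPM of Lypd1 in LOCs against 8.23 TPM in pLSOs. Ly6e, another member of the family, was detected in 9.62% of pLSOs and 35.7% of LOCs, and 1 of 8 controls held 8597 TPM of it. Vsnl1 (80.8% of pLSOs, 57.1% of LOCs), a calcium sensor that binds alpha4, was named after its values were seen.

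All 3 tested genes of acetylcholine synthesis and breakdown were called higher in LOCs, beside 5.65% of all genes. Slc5a7 was detected in 3 of 52 pLSOs and 15 of 28 LOCs (53.6%), with a log2 difference of pLSOs minus LOCs of -2.95. Chat was detected in 0 of 52 pLSOs and 5 of 28 LOCs (17.9%), at 136 to 770 TPM. Ache, acetylcholinesterase, was present in 55.8% of pLSOs and 64.3% of LOCs, but its mean level was higher in LOCs (377 TPM) than in pLSOs (87.8 TPM). Controls held Ache in 3 of 8 libraries (37.5%), at up to 73 TPM. Chat and Slc5a7 are also LOC markers that served to check the labels, and Chat passed the filter on low values through LOCs alone. The count of 3 is therefore no independent support, and only Ache is outside the marker list.

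In the Gq pathway, 11 genes were tested, of which 3 were called higher in pLSOs and 2 higher in LOCs, beside the same 9.04% and 5.65% of all genes. Itpr1, the calcium release channel of internal stores, was detected in 24 of 52 pLSOs (46.2%) and 1 of 28 LOCs (3.57%). For Itpr1 the pLSOs alone were enough to pass the filter on low values, so these counts, too, are no independent support. Prkcb, a protein kinase C, went the other way, with 13.5% of pLSOs and 53.6% of LOCs. Plcb4, a phospholipase C, was detected in 28.8% of pLSOs and 50% of LOCs but also in 4 of 8 controls. Kcnq3, a subunit of the M-current channel that muscarinic receptors close, was detected in 34.6% of pLSOs and 10.7% of LOCs. The last of the 5 called genes, Prkca (30.8% and 7.14%), was named after its values were seen.

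Of 14 tested genes of the Gi/o pathway, 2 were called higher in pLSOs and 0 higher in LOCs, a share near the 14.7% of all genes called in either direction. Both were adenylyl cyclases: Adcy8, detected in 26.9% of pLSOs and 3.57% of LOCs, and Adcy1, detected in 50% and 39.3%, with a mean of 154 TPM in the controls as well. Adcy6 (17.3% of pLSOs, 21.4% of LOCs) and Kcnj3 (19.2% and 32.1%) were not called. Of 12 G protein beta and gamma genes, Gng4 (26.9% of pLSOs, 46.4% of LOCs) and Gng2 (9.62%, 35.7%) were called higher in LOCs and 0 in pLSOs, whereas Gng12 and Gng13 differed by 0.33 and -0.31 on the log2 scale and were not called; this share, too, is near the 14.7% of all genes.

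Of 16 tested regulators of G protein signalling and receptor kinases, 3 were called higher in pLSOs and 1 in LOCs, beside 9.04% and 5.65% of all genes. Rgs17, a brake on Gi/o signalling, was detected in 67.3% of pLSOs and 39.3% of LOCs, with means of 264 and 32.4 TPM. Rgs4 was detected in 32.7% of pLSOs and 3.57% of LOCs, and Rgs2 in 61.5% and 53.6%. Rgs9 was called higher in LOCs from 4 of 28 neurons (14.3%), at 94 TPM or more. For Rgs4 and Rgs9 the class of higher share alone was enough to pass the filter on low values. The counts called are therefore no independent support for a class difference.

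**Figure D5:**
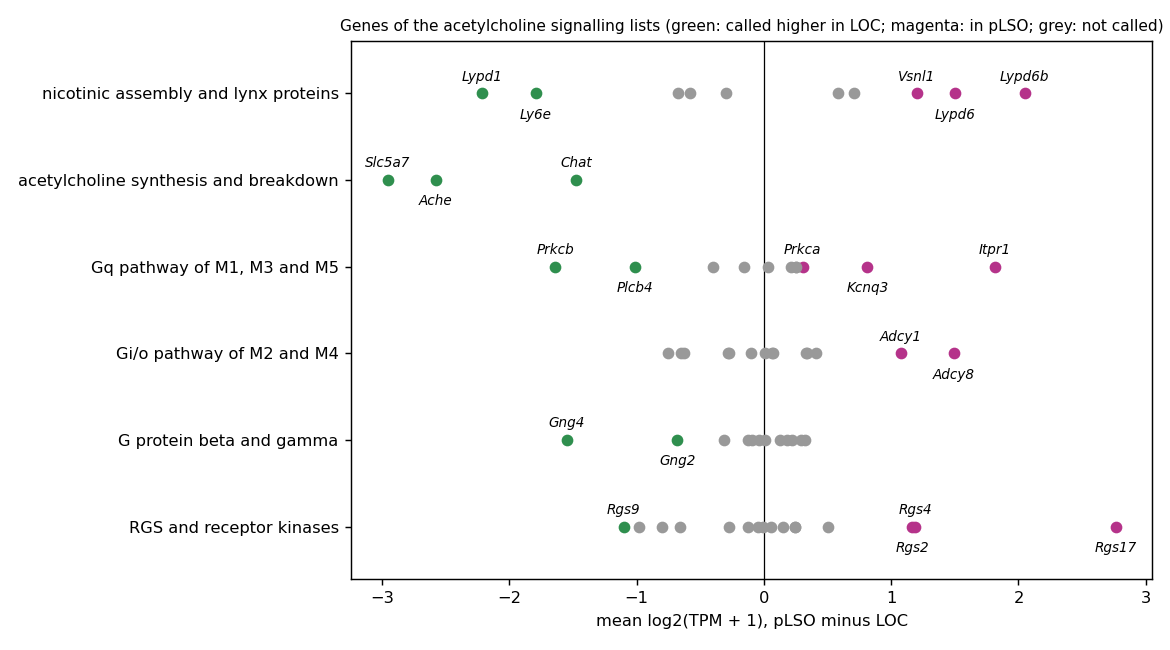
Difference in mean log2(TPM + 1), pLSOs minus LOCs, for each tested gene of 6 lists around acetylcholine signalling; green points were called higher in LOCs, magenta points higher in pLSOs and grey points not called. The 3 synthesis and breakdown genes lie on the LOC side, while the other lists hold points on both sides of 0.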

How the data were processed

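Single neurons of the LSO were recorded in slices, and their cytoplasm was harvested for a modified Smart-seq2 and Nextera XT library, which does not mark strand. Per the labels and the study's methods, the authors used Trim Galore 0.4.2, STAR, Picard 1.115 and featureCounts on mm10. The deposited values are TPM rounded to whole numbers, treated here as a score, with library sums from 999773 to 1000026. The table holds no counts, so the depth of a library was not used.

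Ensembl identifiers were named with Gencode vM21 (37570 of 38887 genes). Of the 96 libraries, 6 neurons and 2 controls were left out. For 7 of them the label differed from membership in the study's cluster averages, and for cell_39 other values are printed under the same name in a supplementary sheet; the choice thus depends in part on the study's clustering. Smallest steps of the values followed gene lengths in sorted order and not each gene's own length. Rescaling used lengths in ascending order less 80 bases, and measured steps in the first 1676 rows.

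1 marker gene is not reported here. The members, gene lists and rules were chosen with earlier results of these data known. Named genes were all 9 receptors, family genes detected in at least 5% of a class, up to 4 genes of each pathway list by the largest log2 difference, and the 3 genes most alike in pattern to each receptor detected in at least 10% of neurons. Detection meant 1 TPM, the pseudocount was 1, and genes in at least 5% of neurons were compared. Alternatives were a detection limit of 10 TPM, pseudocounts of 0.1 and 10, all libraries, neurons with 2000 to 4000 genes, rescaled values, no filter, and the highest neuron of each class left out. The analysis used Python 3.11.15, pandas 2.3.3, NumPy 2.4.6 and SciPy 1.17.1. The comparison was also run on shuffled values with planted class differences larger than those of Chrna3 and Chrm2. The rule calls differences of that size by construction, so the run checked the code and gives no support to the calls.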

Additional observations from a re-analysis of the deposited data

Results flagged for a closer look

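Chrna4 in the negative controls stood apart in 1 library: NC8 held 56 TPM, NC4 held 2 TPM and the other 6 were listed at 0. The gap of the highest control to the next was 0.964 of the range, above the critical value of 0.526 for 8 samples. In normally distributed values about 1 of 20 groups passes that limit by chance. With 6 of the 8 controls listed at 0 this rate does not hold, so the flag gives no chance level. Chrnb2, with 50 and 42 TPM in 2 controls, did not pass the limit (0.16).

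Among the libraries left out of the comparisons, cell_54, labelled Sustained, held 27 TPM of Chrna7, which was listed at 0 in all 8 controls used. Likewise, cell_85, labelled LOC, held 11 TPM of Chrm2. Its values across genes were nearly those of cell_75 (r = 0.958 on log2 values, beside 0.633 for the next most similar pair), and cell_75 also held 11 TPM of Chrm2.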

How the results depend on the processing

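Chrna3 and Chrm2 were called higher in LOCs under every alternative run, but a call needs either the difference of means or that of shares, and most alternatives act on only 1 of them. With a pseudocount of 10 both calls rested on the shares, which it cannot change, and at a detection limit of 10 TPM that of Chrm2 rested on the means, since its share of 17.9% of LOCs was under 20 points. Their log2 differences, pLSOs minus LOCs, ranged from -2.10 to -0.55 for Chrna3 and from -2.09 to -0.35 for Chrm2, and the smallest sizes came from a pseudocount of 10. The number of receptors called between Onset and Sustained neurons was 0, and 1 with a pseudocount of 0.1, where Chrna4 was called higher in Sustained neurons. Leaving out cell_57 and cell_76, an alternative chosen after the data were examined, kept both calls. Of 216 further values under the alternatives, 9 moved by more than the interval of the share or the SD over neurons of the log2 level, and 6 of the 9 came from the limit of 10 TPM, under which Chrna4 was detected in 5.77% of pLSOs. No called difference changed sign, but 3 uncalled ones did: with 2000 to 4000 detected genes, pLSOs minus LOCs of Chrna4 went from 0.13 to -0.0063 and Onset minus Sustained of Chrnb2 from 0.027 to -0.027, and the latter was -0.020 with a pseudocount of 10.

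No paired analysis was possible because the labels name no animal, day or pairing of neurons. With each class as 1 sample, variation between animals was not measured. Transcripts under 0.5 TPM appear as 0, and 8 controls allow a share of up to 37.5% for a gene listed at 0.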
